A study of Mus musculus with 9 samples.

Results

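The integrated stress response was followed through 10 genes, the transcription factor Atf4 and 9 genes that act with it or below it, chosen by symbol from the 55401 genes of the table. The other genes were Atf5, Ddit3, Trib3, Asns, Psat1, Phgdh, Chac1, Sesn2 and Ddit4. All 10 had a mean of at least 1 TPM (a transcript level corrected for length and scaled to the same total in every sample) and were among the 12819 genes tested. The symbol Ddit3 is carried by 2 identifiers at overlapping positions. The second is listed at 0 in every column, so none of the listed level was assigned to it. How reads shared by the 2 were counted is not stated, and the Ddit3 level is uncertain to that extent.

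RAW264.7 is a mouse macrophage line from a tumor induced in a male animal by Abelson murine leukemia virus, and its cells are wild type per the labels. The 9 samples were 3 of cells given DMSO (the vehicle), 3 of cells given LPS (labeled DMSO+LPS, lipopolysaccharide from bacterial walls) and 3 of cells given LPS with skatole, an indole compound (labeled LPS+Skatole and called LPS + Ska here). The labels give a treatment of 24 h and number the samples of each group 5, 6 and 7, and a skatole dose for these samples is not given in the sources used here. As 1 line was used and no source says that the samples came from separate cultures, p-values measure the spread between these samples, which may be technical. In bulk RNA, fewer cells of a kind and less RNA per cell cannot be told apart.

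Depth is unknown because TPM keeps none, and 12498 to 13012 genes per column reached 1 TPM. In the LPS and LPS + Ska groups the columns were tied: replicate 5 equaled the mean of replicates 6 and 7 for every gene above 0 in all 3 columns (17950 and 17658 genes, to within 1e-05 TPM). There are thus no more than 2 separate values for a gene in either group, and the SD over n = 3 columns is a description of those values. The standard errors and p-values below count 3 columns in each of these groups, which is more than the separate values they hold. The fit was therefore repeated on 2 recovered values per group, whose mean is replicate 5 and whose difference is the step between neighboring columns. All 8 macrophage identity genes checked were detected, and their summed level was 1.24e+04 to 1.34e+04 TPM in DMSO, 7.34e+03 to 7.74e+03 in LPS and 1.37e+04 to 1.39e+04 in LPS + Ska, most of it Lyz2 (lysozyme). The part of this shift in the results below was not tested. No single gene among 8 markers of other cell types exceeded 0.53 TPM. All 6 LPS response genes tested were called higher in LPS than in DMSO (limits given below), beside 12.7% of all genes tested. Of them 2, Il6 and Il1b (log2 differences −2.08 and −1.41), were called lower in LPS + Ska than in LPS, beside 6.14% of all genes. Acod1, which makes itaconate, rose by 4.87 on the log2 scale with LPS, and Nos2, the inducible nitric oxide synthase, had 36.2 to 38.8 TPM in LPS and is listed at 0 in DMSO. Of the 8 macrophage identity genes 3 were called lower with LPS, beside 20.0% of all genes. Lyz2 and the factor Spi1 were foremost (log2 differences −1.05 and −0.81), and Lyz2 was higher in LPS + Ska than in LPS (1.19).

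The integrated stress response begins when a kinase phosphorylates the translation factor eIF2α, which slows protein synthesis in general. The Atf4 mRNA has upstream reading frames and is translated better in that state, so the Atf4 protein can increase without any change of its mRNA. Atf4 and its partners then bind C/EBP-ATF response elements at genes for amino acid synthesis, amino acid transport and tRNA charging, and, when stress persists, at genes such as Ddit3 and Chac1 that are linked to cell death. In macrophages, LPS is known to alter amino acid metabolism. The values here are mRNA levels and carry no measure of eIF2α phosphorylation or Atf4 protein.

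The core of the response element was searched for as TGATGNAA, read on both strands as TGATGNAA or TTNCATCA, in RefSeq promoters of the GRCm38.p6 build that run from 250 bases before to 50 bases after each gene's start. It was found in 3.97% of the 32851 promoters and at 4.51% of the 27025 genes with one. Among the 10 genes, it was found at 3, namely Asns, Chac1 and Trib3. Among related genes with a promoter in the table it was found at 3 of 9 bZIP factors and cofactors, 2 of 8 amino acid transporters, 5 of 7 tRNA synthetases, 4 of 10 other Atf4 targets and 1 of 9 further enzymes of serine, proline and one-carbon metabolism. It was found at 0 of 4 eIF2α kinases and 0 of 8 genes of protein folding in the endoplasmic reticulum (ER). A match is a description of the letters in this window only. The stretches below are shown because they belong to every gene of these lists that has a match wholly before its start and was called for LPS against DMSO or LPS + Ska against LPS, plus Chac1, and capitals mark the core in each, written 5′ to 3′ on the gene's strand.
Asns: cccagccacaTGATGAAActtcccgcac
Chac1: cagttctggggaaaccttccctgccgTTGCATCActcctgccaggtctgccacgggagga
Slc7a11: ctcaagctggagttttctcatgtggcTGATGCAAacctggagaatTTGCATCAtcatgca
Atf3: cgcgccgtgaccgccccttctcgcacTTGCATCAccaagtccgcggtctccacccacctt
Pycr1: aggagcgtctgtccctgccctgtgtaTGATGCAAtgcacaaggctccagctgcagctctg
Herpud1: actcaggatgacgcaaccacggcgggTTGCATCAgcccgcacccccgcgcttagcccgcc
Gars: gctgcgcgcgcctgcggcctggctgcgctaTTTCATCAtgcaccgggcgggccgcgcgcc

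These stretches lie at chr6:7693215-7693242 (minus strand) for Asns, chr2:119351023-119351082 (plus) for Chac1, chr3:50443646-50443705 (minus) for Slc7a11, chr1:191183410-191183469 (minus) for Atf3, chr11:120643818-120643877 (minus) for Pycr1, chr8:94386291-94386350 (plus) for Herpud1 and chr6:55037941-55038000 (plus) for Gars. The Asns core begins 23 bases before the RefSeq start, within an exon of the longer GENCODE M21 gene (GRCm38). The Chac1 core lies farther out and begins 193 bases before the start. Slc7a11 carries a copy on each strand, which begin 66 and 47 bases before the start.

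Measured per length in TPM, the 10 genes spanned a 158-fold range of mean level in DMSO. Atf4 was highest, with a mean of 493 ± 31.3 TPM (SD, n = 3), and Ddit4 was lowest, with 3.12 ± 0.433 TPM (SD, n = 3). The order in DMSO was Atf4, Psat1, Phgdh, Asns, Atf5, Ddit3, Sesn2, Chac1, Trib3 and Ddit4. The columns of Atf5 and Ddit3 overlapped, as did each neighboring pair from Sesn2 down to Ddit4, while the other neighbors did not. In LPS, Psat1 stood above Atf4 without overlap, and Phgdh overlapped Asns. In LPS + Ska the columns of Psat1 and Atf4 overlapped. The plot of TPM by column shows these levels for each gene.

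**Figure D1:**
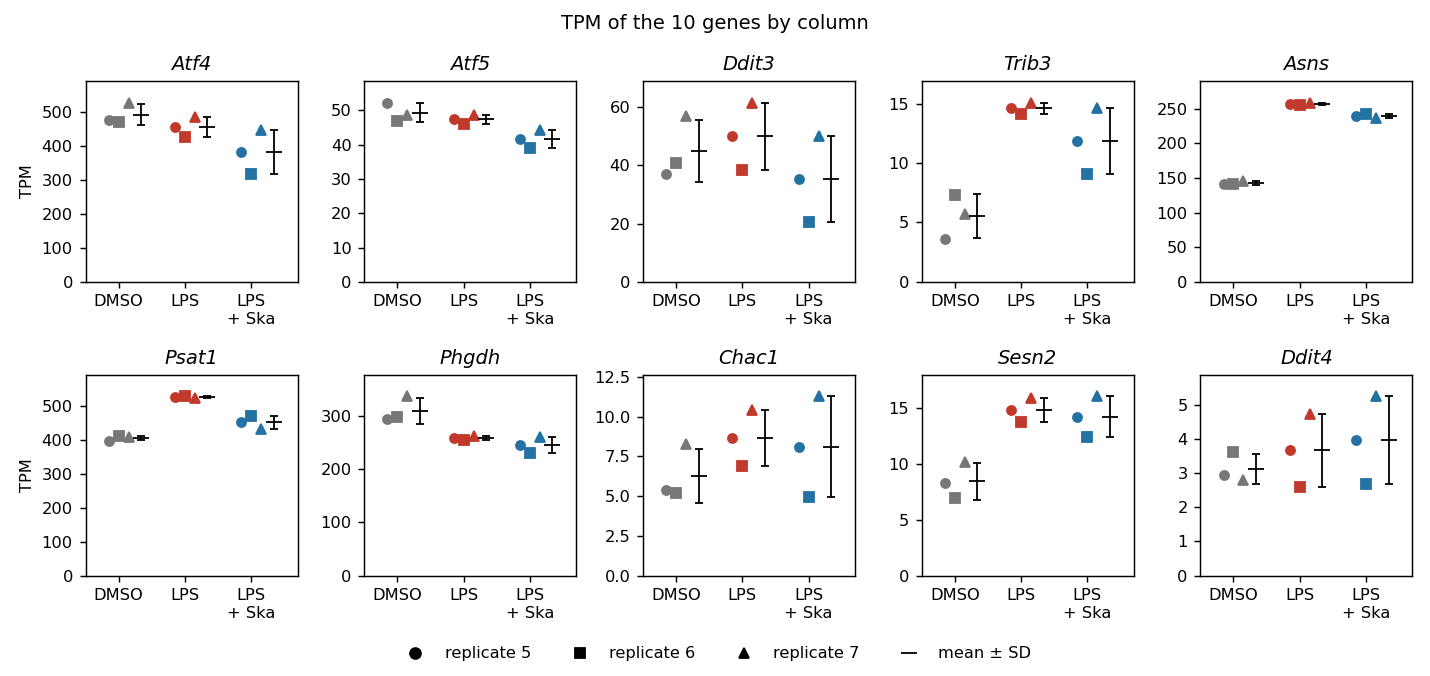
TPM (linear axes from 0) of each of the 10 genes in the 9 columns, by group, with marker shapes for replicates 5, 6 and 7 and a black bar for the mean ± SD of 3 columns. Asns, Trib3 and Sesn2 sit higher in all columns of both LPS groups than in DMSO, while the Ddit3, Chac1 and Ddit4 columns of the 3 groups overlap.

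The comparison of LPS with DMSO asks what LPS did to these genes before skatole is considered. Asns, Trib3 and Sesn2 rose, by 1.80-fold, 2.46-fold and 1.69-fold, and none of the 10 fell past both limits. A gene was called at an adjusted p below 0.05 (limma, Benjamini-Hochberg over the 12819 genes) together with a fold change above 1.5 or below 0.67, all on log2(TPM + 1). Of all genes tested, 12.7% were called higher and 20.0% lower under these limits, and 26.2% and 34.2% at the adjusted p alone. The median log2 fold change of the 10 genes was 0.27, beside −0.07 for all genes tested.

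The transcription factors come first. Atf4 itself (chr15:80255184-80257541, plus strand) had 477, 472 and 529 TPM in DMSO, 456, 426 and 486 in LPS, and 383, 317 and 448 in LPS + Ska, in replicates 5, 6 and 7. The LPS columns overlapped those of DMSO, and the log2 difference was −0.11 ± 0.113 (SE, adjusted p = 0.415), with an unadjusted 95% interval from −0.37 to 0.14. Atf5, a related factor that is also controlled at translation, had 47.0 to 52.3 TPM in DMSO and 46.1 to 48.8 in LPS, again overlapping (log2 difference −0.06 ± 0.068 (SE), adjusted p = 0.498).

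Ddit3 encodes CHOP, the factor associated with death under prolonged stress. It had 36.9, 40.8 and 57.0 TPM in DMSO and 49.9, 38.3 and 61.5 in LPS. The groups overlapped over most of their ranges, with a log2 difference of 0.15 ± 0.298 (SE, adjusted p = 0.684). The interval from −0.52 to 0.82 includes a difference as large as that of Sesn2. For none of the 3 factors was the difference between LPS and DMSO larger than the spread between columns.

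Trib3 is a pseudokinase that is induced by Atf4 and Ddit3 and restrains both. It had 3.57, 7.30 and 5.72 TPM in DMSO and 14.6, 14.1 and 15.1 in LPS. Every LPS column lay above every DMSO column. The log2 difference was 1.30 ± 0.218 (SE, adjusted p = 0.000692, or 0.00177 on the recovered values). The DMSO columns of Trib3 differed by up to 2.04-fold among themselves, so the size of the change is less certain than its direction.

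Among the enzymes, Asns makes asparagine and was the most uniform of the called genes. Asns (chr6:7675169-7693254, minus strand) had 140.4, 140.7 and 146 TPM in DMSO and 257, 254 and 259 in LPS. The groups stood far apart relative to their spread (log2 difference 0.85 ± 0.042 (SE), adjusted p = 4.5e-07, or 8.86e-06 on the recovered values). Psat1 and Phgdh belong to the same pathway of serine synthesis, and their levels moved apart. Psat1, the second enzyme, had 398, 411 and 408 TPM in DMSO and 527, 529 and 524 in LPS, a log2 difference of 0.38 ± 0.046 (SE, adjusted p = 9.65e-05) that stayed inside the fold limit. Phgdh, the first enzyme, had 293, 297 and 336 TPM in DMSO and 259, 254 and 263 in LPS, a log2 difference of −0.25 ± 0.066 (SE, adjusted p = 0.00865), also inside the limit. The columns of both genes were separate between the groups, in opposite directions. With the columns scaled by median ratios the Phgdh value was −0.17 (adjusted p = 0.0528).

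The remaining genes are stress effectors. Sesn2, a leucine-binding inhibitor of mTORC1, had 8.25, 6.90 and 10.2 TPM in DMSO and 14.8, 13.8 and 15.9 in LPS. All LPS columns were above the highest DMSO column (log2 difference 0.76 ± 0.139 (SE), adjusted p = 0.0012, or 0.00323 on the recovered values). Chac1, which breaks down glutathione, had 5.37, 5.17 and 8.26 TPM in DMSO and 8.67, 6.92 and 10.4 in LPS, with overlapping columns and a log2 difference of 0.42 ± 0.267 (SE, adjusted p = 0.199). Ddit4, another inhibitor of mTORC1, had 2.79 to 3.61 TPM in DMSO and 2.60 to 4.72 in LPS, which overlapped (log2 difference 0.16 ± 0.224 (SE), adjusted p = 0.564).

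The comparison of LPS + Ska with LPS asks what skatole added. None of the 10 genes was called by limma in either direction. Over all genes tested, 3.35% were called higher and 6.14% lower, and 8.89% and 19.7% at the adjusted p alone. The 10 genes had 9 log2 differences below 0, beside 8060 of the 12819 genes tested, but after median-ratio scaling 7 of the 10 were below 0, with Phgdh and Sesn2 turning above it. Their median was −0.16 beside −0.10 for all genes, and after that scaling −0.06 beside −0.0046. At an adjusted p alone, Psat1 was the 1 gene past the limit. On the recovered values no call of the 10 genes changed, while the shares of all genes past the adjusted p alone were 5.90% higher and 12.7% lower.

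Psat1 had 452, 471 and 433 TPM in LPS + Ska, below its 3 LPS columns and above its 3 DMSO columns. Its log2 difference from LPS was −0.22 ± 0.046 (SE, adjusted p = 0.00749, or 0.0309 on the recovered values), short of the fold limit. Over all 17 alternatives this difference lay between −0.25 and −0.12. Here and below, some alternatives, such as another filter, cannot change a log2 difference and bear on its p-value alone. Asns, with 239, 243 and 236 TPM in LPS + Ska, was also below every LPS column, and its log2 difference was −0.10 ± 0.042 (SE, adjusted p = 0.11). After median-ratio scaling the Asns difference was −0.00 (adjusted p = 0.996). Phgdh had 245, 230.2 and 259.8 TPM, overlapping LPS, with a log2 difference of −0.08 ± 0.066 (SE, adjusted p = 0.404).

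The factors had lower means in LPS + Ska, none past the test as fitted. With the replicate number as a block, Atf4 (adjusted p = 0.0348) and Ddit3 (adjusted p = 0.0458) passed the adjusted p but not the fold limit, although the tied columns do not establish that the numbers pair the samples. Atf4 had a log2 difference of −0.26 ± 0.113 (SE, adjusted p = 0.11), and replicate 7 of LPS + Ska, with 448 TPM, lay within the LPS range while replicates 5 and 6 lay below it. Without that column the Atf4 difference was −0.38, and without replicate 6, the other side of the tied mean, it was −0.14, both inside the fold limit. When either column is dropped, the columns left average to 1 recovered value, so only effect sizes are given here. Atf5 had 41.7, 39.1 and 44.3 TPM in LPS + Ska, all below the LPS columns, and a log2 difference of −0.18 ± 0.068 (SE, adjusted p = 0.0717). The Atf5 difference was −0.23 without replicate 7 of LPS + Ska and −0.14 without replicate 6. Over all 17 alternatives the log2 differences lay between −0.38 and −0.14 for Atf4 and between −0.23 and −0.09 for Atf5. Ddit3 had 35.3, 20.6 and 49.9 TPM in LPS + Ska, and these columns overlapped those of LPS. Its log2 difference of −0.55 ± 0.298 (SE, adjusted p = 0.197) had the largest size among the 10 genes and the widest unadjusted 95% interval, from −1.22 to 0.12. It was −0.84 without replicate 7 of LPS + Ska and −0.22 without replicate 6.

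Trib3 had 11.8, 9.06 and 14.6 TPM in LPS + Ska, where the highest column lay within the LPS range, and a log2 difference of −0.30 ± 0.218 (SE, adjusted p = 0.325). Sesn2 had 14.2, 12.4 and 16.0 TPM and Chac1 8.11, 4.93 and 11.3, and in both genes the LPS + Ska columns spanned those of LPS. Their log2 differences were −0.06 ± 0.139 (SE, adjusted p = 0.772) and −0.13 ± 0.267 (SE, adjusted p = 0.742). Ddit4 had 3.96, 2.67 and 5.24 TPM, with a log2 difference of 0.08 ± 0.224 (SE, adjusted p = 0.81). The intervals for Chac1, from −0.73 to 0.47, and for Sesn2, from −0.37 to 0.25, show which sizes of change the data do not separate from 0.

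**Figure D2:**
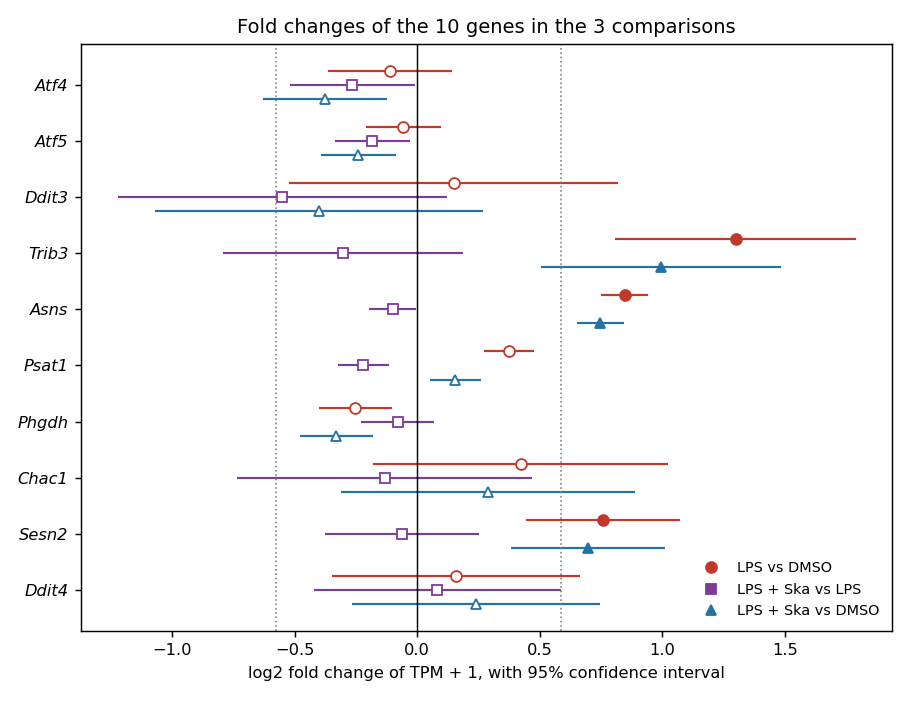
Log2 fold change of TPM + 1 (horizontal axis) of each of the 10 genes in the 3 comparisons, with unadjusted 95% confidence intervals as lines, dotted lines at the fold limits of 1.5 and 0.67, and filled markers for called genes. Trib3, Asns and Sesn2 are filled in both comparisons with DMSO, and no marker is filled for LPS + Ska against LPS.

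LPS + Ska was also compared with DMSO, which shares its DMSO columns with the first comparison and its LPS + Ska columns with the comparison above. Trib3, Asns and Sesn2 were again called higher, with log2 differences of 0.99 ± 0.218, 0.75 ± 0.042 and 0.70 ± 0.139 (SE), and no gene was called lower. Their adjusted p-values were 0.00296, 8.86e-07 and 0.00176, or 0.00571, 1.37e-05 and 0.00438 on the recovered values. Of all genes 11.4% were called higher and 25.3% lower, and 22.7% and 40.6% at the adjusted p alone. Without replicate 6 of DMSO, the Sesn2 difference was 0.58 and inside the fold limit.

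At the adjusted p alone, Psat1 was higher in LPS + Ska than in DMSO (log2 difference 0.16, adjusted p = 0.0136), and Atf4, Atf5 and Phgdh were lower. Psat1 did not pass in a fit of the compared groups alone (adjusted p = 0.0501) or without replicate 5 of LPS + Ska (adjusted p = 0.0544). Over all 17 alternatives the Psat1 difference lay between 0.13 and 0.34. The log2 differences were −0.38 ± 0.113 (SE, adjusted p = 0.0154) for Atf4, −0.24 ± 0.068 (SE, adjusted p = 0.0119) for Atf5 and −0.33 ± 0.066 (SE, adjusted p = 0.00176) for Phgdh. The median of all genes in this comparison was −0.18, and median-ratio scaling brought it to −0.01. On that scale the differences were −0.19 for Atf4 (adjusted p = 0.197), −0.06 for Atf5 (adjusted p = 0.519) and −0.15 for Phgdh (adjusted p = 0.0797), none past the limit. The same scaling moved the share of higher genes among all called genes from 31.0% to 48.4% in this comparison and from 35.3% to 52.0% in LPS + Ska against LPS.

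The spread within a group was uneven among the genes. In LPS + Ska, replicate 7 exceeded replicate 6 by 2.42-fold for Ddit3, 2.29-fold for Chac1, 1.96-fold for Ddit4, 1.61-fold for Trib3 and 1.41-fold for Atf4. These columns stretch the tied values, and on the recovered values the ratio was 1.53 for Ddit3, 1.49 for Chac1, 1.39 for Ddit4, 1.27 for Trib3 and 1.19 for Atf4. The columns of Asns, Psat1, Phgdh and Atf5 differed by between 1.03-fold and 1.13-fold, and their recovered values by between 1.01-fold and 1.06-fold. In that group 8 of the 10 genes were higher in replicate 7 than in replicate 6, all but Asns and Psat1, beside 39.3% of all genes tested. In LPS 9 of the 10 were, all but Psat1, beside 54.8% of all genes. In DMSO 7 of the 10 were, beside 58.3% of all genes.

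Atf4, Ddit3, Phgdh, Chac1 and Sesn2 were highest in replicate 7 in all 3 groups, and the share of all genes with that pattern was not counted. Replicate 7 was the highest column for 45.2% of all genes tested in DMSO, 54.8% in LPS and 39.3% in LPS + Ska. In the LPS and LPS + Ska groups replicate 5 is a mean of the others and cannot be the highest. The log2 difference between replicates 7 and 6 for Ddit3 was 0.47 in DMSO, 0.67 in LPS and 1.24 in LPS + Ska. The last lay at the 98.4th percentile of all genes tested. The columns of the LPS and LPS + Ska groups stretch the tied values, so their sizes do not compare with that of DMSO. The recovered values of Ddit3 differed by 1.26-fold in LPS and 1.53-fold in LPS + Ska. Other stress genes outside the 10 were also higher in replicate 7 of LPS + Ska, such as Nupr1 (8.10 and 20.2 TPM in replicates 6 and 7) and Ppp1r15a, a subunit that directs eIF2α dephosphorylation (9.78 and 20.1 TPM), both singled out after their values were seen. Beside the 39.3% of all genes, replicate 7 of this group was the higher in 5 of 10 bZIP factors and cofactors, 5 of 9 other Atf4 targets, 6 of 12 tRNA synthetases, 2 of 4 relatives of the 10 genes and 4 of 8 ER folding genes. It was the higher in 2 of 10 amino acid transporters, 2 of 10 enzymes of serine, proline and one-carbon metabolism, 2 of 11 genes for eIF2 and its regulators and 0 of 4 eIF2α kinases. What set these columns apart was not tested.

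**Figure D3:**
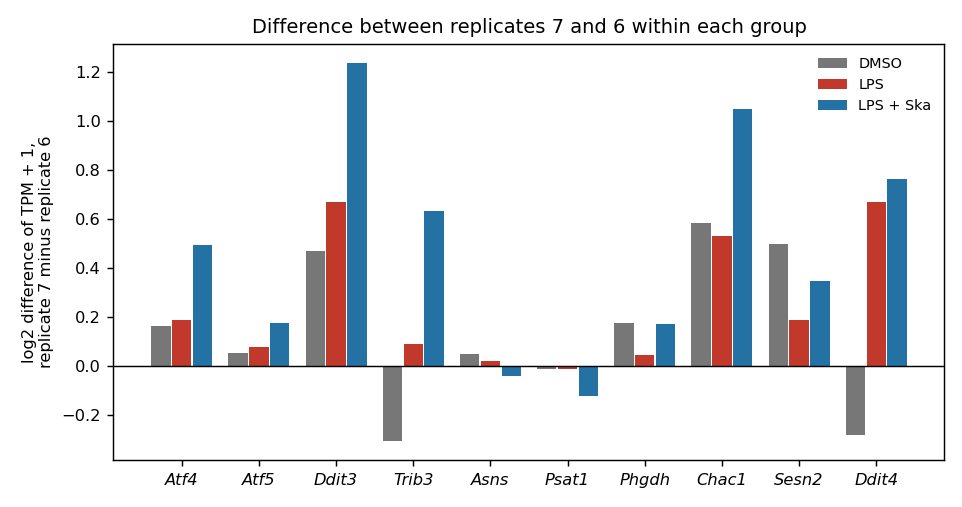
Log2 difference of TPM + 1 between replicate 7 and replicate 6 (vertical axis) for the 10 genes, with a bar from 0 for each group. The LPS + Ska bars reach 1.24 for Ddit3 and 1.05 for Chac1, while those of Asns, Psat1 and Phgdh stay between −0.12 and 0.17. The columns of the LPS and LPS + Ska groups stretch the tied values, so their bars do not compare in size with those of DMSO.

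The rest of the pathway was described by lists of genes, whose counts stand beside the shares of all genes called, 12.7% higher and 20.0% lower with LPS and 3.35% higher and 6.14% lower for LPS + Ska against LPS. Above Atf4, 2 of the 4 eIF2α kinases had log2 differences above 0 with LPS and 2 below 0. For LPS + Ska against LPS all 4 were below 0, beside 8060 of the 12819 genes tested, and 3 after median-ratio scaling. At the adjusted p alone 2 of the 4 were lower in that comparison, beside 19.7% of all genes. Eif2ak2 encodes PKR, an interferon-induced kinase that senses double-stranded RNA, and it had 16.1, 16.3 and 16.4 TPM in DMSO, 61.0, 59.3 and 62.7 in LPS and 32.2, 36.8 and 27.7 in LPS + Ska. The 3 groups were fully separate, with LPS + Ska between the others. Eif2ak2 rose with LPS (log2 difference 1.84 ± 0.093 (SE), adjusted p = 4.52e-07) and was lower in LPS + Ska than in LPS (−0.91 ± 0.093 (SE), adjusted p = 0.000246). On the recovered values these adjusted p-values were 2.11e-06 and 0.00125.

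The other kinases were not called with all columns in the fit. Eif2ak4, the sensor of uncharged tRNA (GCN2), had 18.5 to 21.1 TPM in LPS and 11.9 to 14.9 in LPS + Ska. Its log2 difference of −0.53 ± 0.098 (SE, adjusted p = 0.00435, or 0.0157 on the recovered values) passed the adjusted p but not the fold limit. Without replicate 6 of LPS + Ska it was −0.60, past the fold limit, but the columns left then average to 1 recovered value. Eif2ak3, the ER stress sensor (PERK), differed by −0.29 on the log2 scale between LPS and DMSO (adjusted p = 0.0266), and Eif2ak1, the heme-regulated kinase, differed by −0.30 (adjusted p = 0.00542). With skatole these 2 kinases differed from LPS by −0.10 (adjusted p = 0.464) and −0.09 (adjusted p = 0.37). Of 11 genes for eIF2, its exchange factor and its phosphatase regulators, 1 was called higher with LPS, Eif2b3, an eIF2B subunit (log2 difference 0.69, adjusted p = 7.57e-05), and none was called between LPS + Ska and LPS, where 1 was higher and 2 were lower at the adjusted p alone, beside 8.89% and 19.7% of all genes. On the recovered values 1 was higher and 1 was lower.

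Among 10 bZIP factors and cofactors that act beside Atf4, 1 was called higher and 1 lower with LPS, and none was called between LPS + Ska and LPS. Median-ratio scaling called Jdp2 higher with LPS as well. Atf3, a stress factor and repressor of inflammatory genes, had 92.5, 104 and 151 TPM in DMSO, 11.7, 11.7 and 11.7 in LPS and 13.9, 12.9 and 15.0 in LPS + Ska. It fell by 3.17 on the log2 scale with LPS (SE 0.153, adjusted p = 3.81e-07). The LPS + Ska columns lay above those of LPS but did not pass the test (log2 difference 0.23 ± 0.153 (SE), adjusted p = 0.29). Atf2, a partner of Jun, rose with LPS (log2 difference 1.03 ± 0.097 (SE), adjusted p = 2.11e-05).

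Genes of amino acid supply included rises larger than those of the 10 genes. Of 10 tested amino acid transporters, 4 were called higher with LPS and none lower (12.7% and 20.0% of all genes), and 1 was called higher and none lower with skatole (3.35% and 6.14%). Of the calls with LPS, that of Slc38a2 was lost without replicate 5 of DMSO and also without replicate 7 of LPS. Slc7a5 was called higher with LPS after median-ratio scaling and also without replicate 7 of DMSO. Slc7a11 imports cystine and is also a target of Nrf2. It had 5.65, 6.47 and 8.08 TPM in DMSO, 27.8, 27.1 and 28.5 in LPS and 72.2, 81.0 and 63.4 in LPS + Ska. It rose at both steps, by 1.91 ± 0.123 (SE, adjusted p = 2.03e-06) and then by 1.34 ± 0.123 (SE, adjusted p = 0.000143) on the log2 scale. On the recovered values these adjusted p-values were 1.76e-05 and 0.0016. Slc1a4, a transporter of neutral amino acids, rose with LPS (log2 difference 1.15 ± 0.151 (SE), adjusted p = 0.000158) and differed by −0.14 with skatole (adjusted p = 0.529).

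Of 10 tested enzymes of serine, glycine, proline and one-carbon metabolism, 3 were called higher with LPS and none lower (12.7% and 20.0% of all genes), and with skatole none was called higher and 1 lower (3.35% and 6.14%). Median-ratio scaling called Mthfd2 higher with LPS as well. Cth, which makes cysteine from cystathionine, had 5.13, 4.99 and 6.25 TPM in DMSO, 27.9, 28.7 and 27.0 in LPS and 19.2, 19.4 and 18.9 in LPS + Ska. Its LPS difference was 2.17 ± 0.089 (SE, adjusted p = 1.44e-07), and its skatole difference of −0.52 ± 0.089 (SE, adjusted p = 0.00308, or 0.0255 on the recovered values) was inside the fold limit. Aldh1l2, a mitochondrial folate enzyme, also rose with LPS (log2 difference 1.11 ± 0.19 (SE), adjusted p = 0.000784).

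Pycr1, the mitochondrial enzyme that makes proline, had 6.48, 9.33 and 6.26 TPM in DMSO, 5.33, 6.16 and 4.51 in LPS and 2.04, 2.08 and 1.99 in LPS + Ska. The skatole columns were all below the others. Pycr1 fell by 1.05 on the log2 scale from LPS (SE 0.159, adjusted p = 0.00171, or 0.011 on the recovered values). At 1.99 to 2.08 TPM its level is low, and the pseudocount of 1 understates its fold change.

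**Figure D4:**
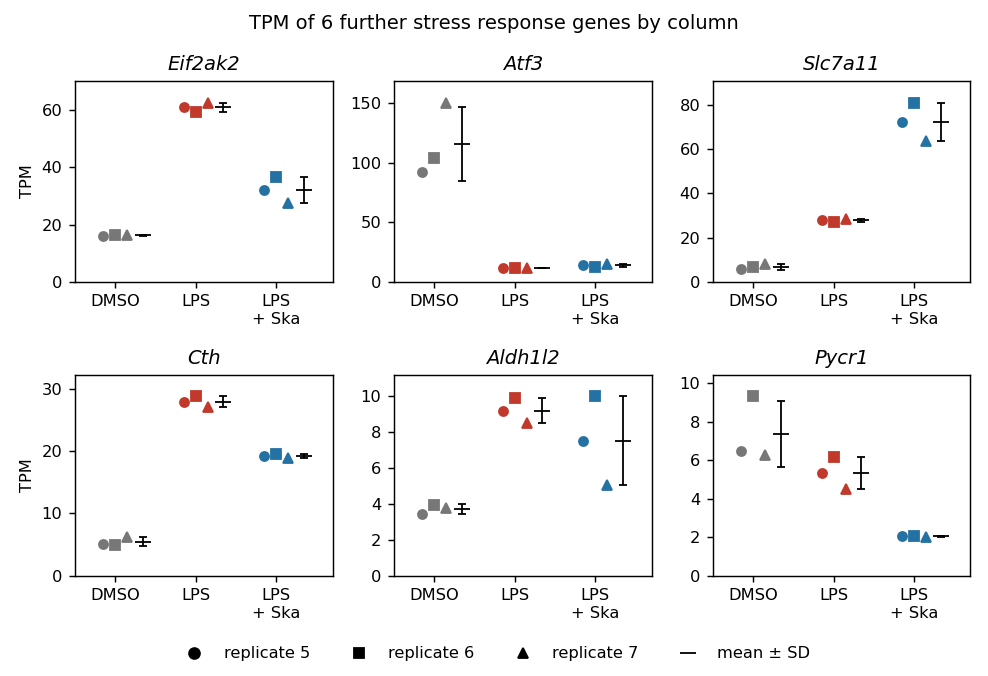
TPM (linear axes from 0) of Eif2ak2, Atf3, Slc7a11, Cth, Aldh1l2 and Pycr1 in the 9 columns, by group, with marker shapes for replicates 5, 6 and 7 and a black bar for the mean ± SD of 3 columns. Slc7a11 is highest in LPS + Ska (63.4 to 81.0 TPM), Eif2ak2 and Cth are highest in LPS, and Atf3 is highest in DMSO.

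Of 12 tRNA synthetases, which charge tRNAs with amino acids, 1 was called higher with LPS. That was Gars, for glycine, at a log2 difference of 0.62 ± 0.066 (SE, adjusted p = 4.4e-05), close to the fold limit, and without replicate 5 of DMSO it was no longer called. Median-ratio scaling called Nars, Iars and Lars higher as well. With skatole all 12 log2 differences were below 0, beside 8060 of the 12819 genes tested, with a median of −0.22 beside −0.10 for all genes. After median-ratio scaling 10 were below 0, with a median of −0.12 beside −0.0046 for all genes. At the adjusted p alone 7 passed, beside 19.7% of all genes. After that scaling 2 passed, and the share of all genes on that scale is not given here. On the recovered values 3 passed, beside 12.7% of all genes. None of the 12 was called. Of 9 other Atf4 targets tested, 2 were called higher with LPS and none with skatole. They were Ero1a, an ER oxidase, at a log2 difference of 1.19 ± 0.108 (SE, adjusted p = 1.67e-05) and Herpud1, a part of ER-associated degradation, at 0.82 ± 0.064 (SE, adjusted p = 6.91e-06). At the adjusted p alone 5 of the 9 were higher with LPS and 3 lower, beside 26.2% and 34.2% of all genes. The lower ones were Stc2, Eif4ebp1 and Cebpb (log2 differences −0.47, −0.47 and −0.45).

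Close relatives of the 10 genes gave 2 calls for higher levels with LPS among 4 tested. Psph, which completes serine synthesis after Phgdh and Psat1, rose by 0.68 ± 0.079 (SE, adjusted p = 6.85e-05) on the log2 scale. Chac2, a glutathione-degrading relative of Chac1, rose by 0.64 ± 0.129 (SE, adjusted p = 0.00216), a call that was lost without replicate 5 of DMSO. Of 8 ER folding genes outside the Atf4 branch, 2 were called higher and 1 lower with LPS (12.7% and 20.0% of all genes), and none with skatole. Neither of the 2 higher calls, Dnajb9 and Hsp90b1, held without replicate 5 of DMSO. Median-ratio scaling called Hspa5 higher with LPS as well. Sdf2l1, a chaperone cofactor, was the lower one (log2 difference −0.74 ± 0.094 (SE), adjusted p = 0.000123), and Dnajb9, another cofactor, was higher (0.63 ± 0.167 (SE), adjusted p = 0.00885), a call also lost without replicate 7 of LPS.

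**Figure D5:**
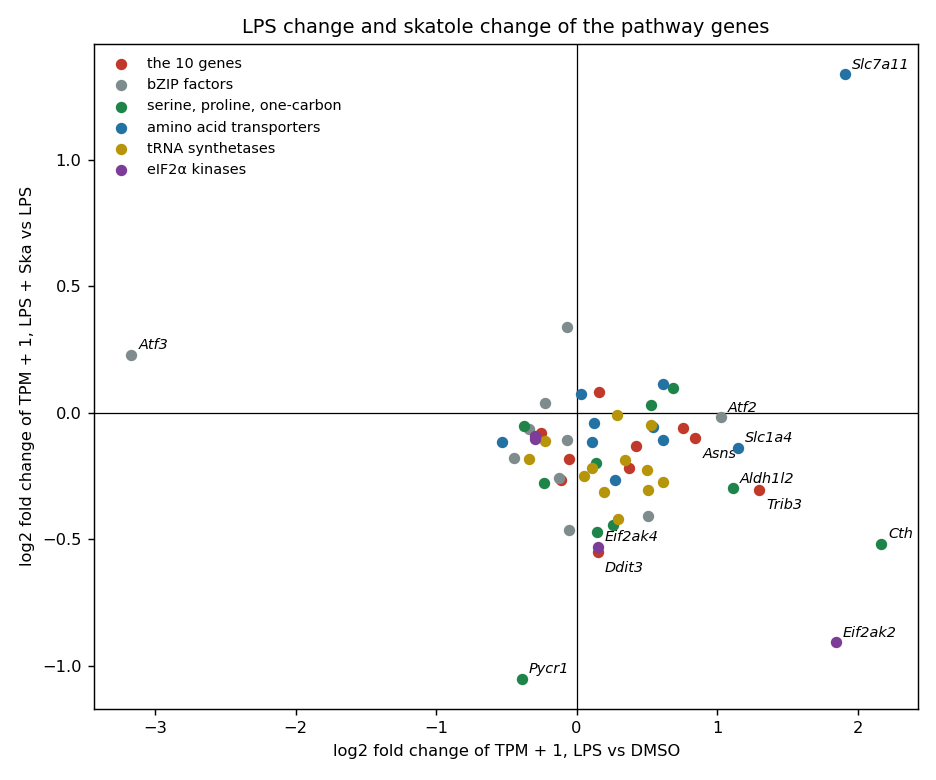
Log2 fold change of TPM + 1 for LPS against DMSO (horizontal axis) and for LPS + Ska against LPS (vertical axis), 1 point per gene, colored by list. The 2 axes share the LPS columns, so the shape of the cloud is not a result, and Slc7a11, Eif2ak2, Cth, Pycr1 and Atf3 lie far from the 10 genes, which stay between −0.55 and 0.08 on the vertical axis.

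For Atf4, Ddit3 and Asns, the genes with the most similar pair of log2 differences (LPS against DMSO, and LPS + Ska against LPS) were found by Euclidean distance over the 3 groups. For Atf4 they were Mfn2, Ndrg3 and Fbxo42, at distances up to 0.00523, and 307 genes lay within 0.1. For Ddit3 they were Smurf2, Nsd1 and the kinase Eif2ak4, at distances up to 0.0195, and 103 genes lay within 0.1. For Asns they were Mcoln2, Gm6475 and Zfp518a, at distances up to 0.0145, and 96 genes lay within 0.1. A pattern over 3 groups is shared by many genes, so likeness here is only a description.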

How the data were processed

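Total RNA of RAW264.7 cells was sequenced by the authors from 9 samples in 3 groups. The submitters' processing notes name fastp 0.20.1, HISAT2 2.2.1, StringTie 2.0 and mm10, and the methods name no test for the RNA-seq and give a longer treatment than the labels and results section. The authors deposited TPM per gene. Symbols were found for 55141 of 55401 identifiers.

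The deposited TPM were fitted in R 4.3.3 with limma 3.58.1 (lmFit and a trended eBayes) on log2(TPM + 1), with 9 columns and the 12819 genes of mean TPM at least 1. The fit was also run on simulated data with independent columns. That run held no tied columns, so it does not test the p-values that rest on the LPS and LPS + Ska groups. The 10 genes and all 13 lists were chosen with earlier results of these data known. All 10 genes and all eIF2α kinases were named, and from each other list the 3 largest changes among called genes for LPS + Ska against LPS and the 2 largest for LPS against DMSO. Nearest genes were named for Atf4, Ddit3 and Asns. Alternatives were other pseudocounts, filters, scaling, limits and fits, a replicate block, recovered values and each column left out. Genes in more than 1 list (such as Psph and Cebpb) were counted in each.

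Replicate numbers were not taken to pair samples. Deviations of same-numbered columns correlated at 0.384, 0.151 and 0.128 between LPS and LPS + Ska, but those columns are tied, and at −0.032 to 0.0801 for the other 6 pairs. Positions came from GENCODE M21 and promoters from RefSeq. Plots were made in Python 3.11.15 with matplotlib 3.10.9.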

Additional observations from a re-analysis of the deposited data

How the results depend on the processing

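Each fold change of the 10 genes was refitted under 17 alternatives (16 for Ddit4, which a minimum mean of 5 TPM removed), and of 507 refits 1 lost a call, that of Sesn2 in LPS + Ska against DMSO without replicate 6 of DMSO (log2 difference 0.58). With the adjusted p alone as the limit, 1 gene was lower in LPS than in DMSO (Phgdh), 1 in LPS + Ska than in LPS (Psat1) and 3 in LPS + Ska than in DMSO (Atf4, Atf5 and Phgdh), where none had been called, and Psat1 raised the count of higher genes from 3 to 4 in both comparisons with DMSO. The loss of Sesn2 lowered the count of higher genes in LPS + Ska against DMSO from 3 to 2. Every other count equaled the main one, including those from 2 recovered values per tied group. Alternatives that change only the filter, the trend, the groups fitted or the block leave each log2 difference as it was. The same holds for a left-out column of a group that is not compared, so these refits bear on the p-values alone. With a replicate block the number of genes called higher was 3, 0 and 3 in the 3 comparisons, and none was called lower. The block changed no call, but Ddit3 (adjusted p = 0.0458) and Atf4 (adjusted p = 0.0348) in LPS + Ska against LPS, and Chac1 in LPS against DMSO (adjusted p = 0.0324), then passed the adjusted p inside the fold limit. Because the LPS and LPS + Ska columns are tied, a block can absorb part of the step between them, and these p-values do not establish that the numbers pair the samples. The fit with no filter rests on many residual variances of 0, and its adjusted p-values near 1 are unreliable. Depth is unknown, so no counting error could be given, and low levels such as that of Ddit4 rest on an unknown number of reads.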
